A study of Homo sapiens with 18 samples.

Results

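MP41 is a uveal melanoma cell line, a melanoma that arises from the pigment cells of the eye. The RNA-seq comparison described here set MP41 cells treated with UNC0642 (1 μM, 48 h) against MP41 cells treated with the solvent DMSO, with 3 replicates in each group. These 6 libraries were chosen by their labelled cell line and treatment, from 18 libraries that also cover a uveal melanoma line named Mel92.1 and the inhibitor A366. The cells carried no introduced allele, were grown in RPMI with fetal bovine serum, and represent 1 cell line. The submitters call the replicates biological. The labels do not say whether they came from separate cultures, so the p-values measure the spread between these libraries, which may be technical.

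UNC0642 is a small-molecule inhibitor of EHMT2 (G9a) and of its partner EHMT1 (GLP), which place mono- and dimethyl marks on lysine 9 of histone H3. These marks are found over repressed genes, and the enzymes also methylate proteins other than histones. The study treated uveal melanoma cells with inhibitors of EHMT2 to find genes that the enzyme holds down, with an interest in recognition by natural killer (NK) cells. Uveal melanoma is usually driven by activating mutations in the Gq pathway, which signals through protein kinase C, MAPK and the YAP co-activator. Lists of genes for these pathways and for stress responses, pigmentation and immune recognition are therefore described below.

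The 6 libraries held 37531524 to 44082883 counts. Genes of ribosomal RNA took 3.31% to 5.1% of the counts with DMSO and 3.55% to 5.14% with UNC0642, and neither this share nor the total differed between groups (exact permutation test, two-sided, p = 1 for each, where 3 against 3 cannot go below 0.1). Replicates correlated at Spearman's rho of 0.9941 to 0.9971 across genes. UNC0642 replicate 2 stood furthest from its group, with a median absolute log2 difference of 0.146 to 0.15 from the other two, against 0.108 between those and 0.0839 to 0.114 among the DMSO libraries. Small structural RNA genes took 0.0617% of its counts and 0.0241% to 0.0356% of those of the other 5 libraries. Of 7 melanocyte markers all were detected, with summed levels of 16666 to 16840 CPM with DMSO (CPM, counts scaled to the effective library size) and 17250 to 17728 CPM with UNC0642. Markers of epithelial, leukocyte, muscle and endothelial cells each summed to 1.5 CPM or less in every library, and those of fibroblasts to 31.4 to 34.9 CPM with DMSO and 32.5 to 38.7 CPM with UNC0642, with none past the test. As a check of the line, 24 genes of MP41 and 16 genes of Mel92.1 were chosen from the DMSO libraries. The cutoffs were 20 CPM or more in their own line and 0.05 CPM or less in the other. The values of the MP41 DMSO libraries (97.9% to 101% and 0.00211% to 0.0161%) follow from this choice and do not check their line. In the 3 UNC0642 libraries, the MP41 genes stood at 104% to 111% of their MP41 DMSO level. The Mel92.1 genes stood there at 0.0177% to 0.0583% of their Mel92.1 DMSO level. Of the libraries labelled MP41 A366, replicates 2 and 3 carried the Mel92.1 genes at 116% and 92.8%, and they enter no value below except where stated.

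The transcripts of the inhibited enzymes did not pass the test. EHMT2 was measured at 107, 109 and 113 CPM with DMSO and at 103, 103 and 111 CPM with UNC0642 (log2 fold change −0.049 ± 0.051 SE, adjusted p = 0.744). EHMT1 was measured at 44.1, 45.7 and 43.1 CPM with DMSO and at 51.2, 44.2 and 46.6 CPM with UNC0642 (0.096 ± 0.066, adjusted p = 0.609). The groups overlapped for both genes. These levels do not report on the activity of either enzyme, and histone methylation was not measured by RNA-seq.

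With UNC0642, 116 of 14561 tested genes (0.797%) passed an adjusted p of 0.05 (edgeR quasi-likelihood F-test, Benjamini-Hochberg), of which 54 were higher (0.371%) and 62 lower (0.426%). At an unadjusted p under 0.05, 869 were higher and 905 lower, 1774 of the 14561 in all. The changes were small, with a median absolute log2 fold change of 0.36 among the 116 genes and a smallest of 0.15. Only 24 of them reached 1.5-fold (13 higher, 11 lower) and 8 reached 2-fold. The 3 UNC0642 values lay outside the range of the 3 DMSO values for all 116, as they did for 2773 tested genes (19%). The median log2 fold change over all tested genes was 0.0035. These values over all tested genes are the background for every list below, and no list was tested against them.

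The number of genes past the threshold depended on which libraries entered the fit. It was 19 without DMSO replicate 1, 51 without DMSO replicate 2 and 22 without DMSO replicate 3. It was 58 without UNC0642 replicate 1, 209 without UNC0642 replicate 2 and 41 without UNC0642 replicate 3. With all 9 libraries labelled MP41 in 1 fit, 0 genes passed (221 at an unadjusted p under 0.05), and with A366 libraries placed by the line whose genes they carry, 36 passed, of which 34 were among the 116. A fit of 12 libraries of both lines gave 1. In all 6 fits that left out 1 library, 16 genes passed: COL9A1, DCT, HTN1 and LHFPL3-AS1 among the higher genes, and ABHD14A-ACY1, ASNS, CHAC1, CHORDC1, CRYAB, FLRT2, GDF15, HSPA1B, HSPA5, MGP, S100B and SLC16A6 among the lower. Every other gene described below as having risen or fallen passed with all 6 libraries and missed the threshold in at least 1 of those fits.

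**Figure D1:**
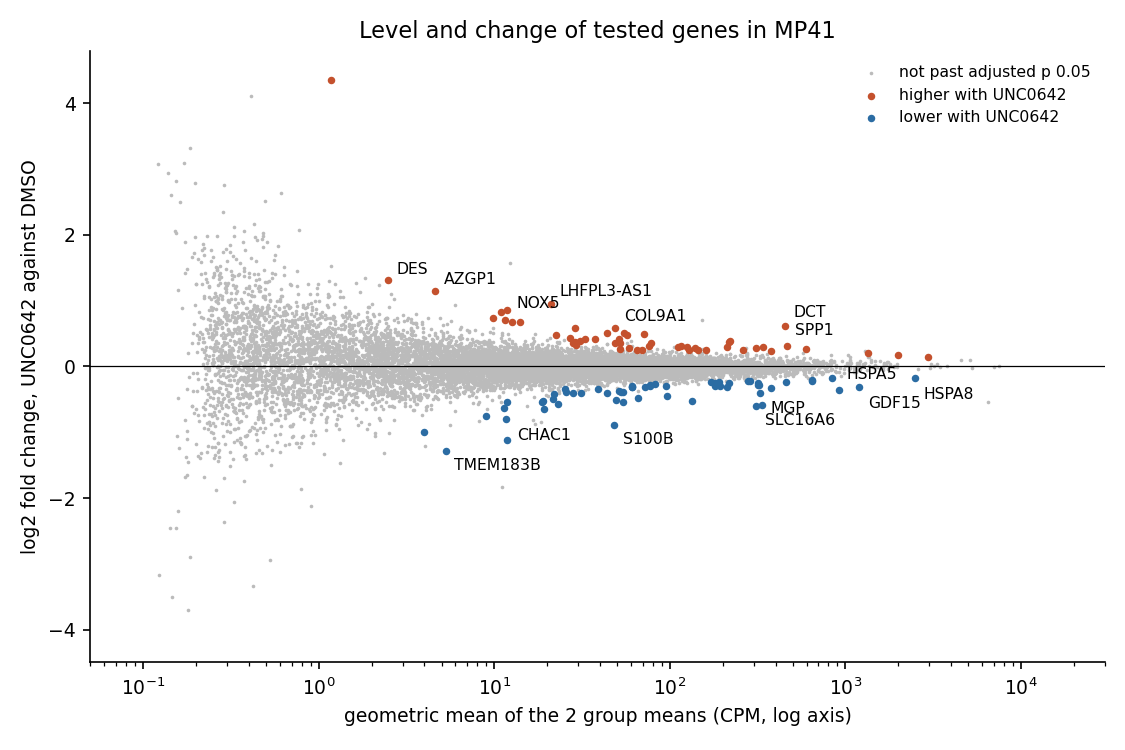
Each point is 1 tested gene, with its level on the x axis (geometric mean of the group means in CPM, log axis) and its log2 fold change with UNC0642 against DMSO on the y axis. Genes past the adjusted p of 0.05 are coloured (54 higher, 62 lower), most lie within 1 log2 unit of 0, and ABHD14A-ACY1 and TGIF2-C20orf24, which had no counts in 1 group, are not drawn.

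The study names 8 genes as raised by both inhibitors in both lines, of which 3 (AZGP1, NOX5 and BANCR) passed the test here with a background of 0.371% for higher genes. All 8 had positive log2 fold changes, with a median of 0.74. They were picked on these samples, so their direction here is not independent evidence. AZGP1 (zinc-alpha-2-glycoprotein, a secreted protein with an MHC class I-like fold) was measured at 3.22, 3.3 and 2.74 CPM with DMSO and at 7.16, 6.94 and 6.54 CPM with UNC0642. The groups lay far apart, and AZGP1 rose 2.23-fold (log2 1.15 ± 0.16, adjusted p = 0.00521), the largest rise among the 8. Without DMSO replicate 3 its adjusted p was 0.051. In hg38 the gene lies at chr7:99966720-99976157 on the minus strand, and no other annotated gene overlaps it. AZGP1 is also made by the liver. The 5 hepatocyte markers (ALB, APOA1, AHSG, TTR and FGB) summed to 4.83 to 7.95 CPM with DMSO and 5.59 to 13.2 CPM with UNC0642, and none passed the test. Of 21 tested genes for plasma proteins of the liver type, 17 had positive log2 fold changes (median 0.40). Of the 21, 1 passed, AZGP1 (4.76%, beside 0.371% of all tested genes that were higher). That count was 0 without DMSO replicate 3 and 2 without DMSO replicate 2 or UNC0642 replicate 2. Positive medians were also found for marker lists of epithelial (0.95, 4 tested), leukocyte (0.67, 3 tested), fibroblast (0.18, 3 tested) and endothelial cells (0.17, 3 tested). For the muscle list the median was −0.056. In bulk RNA, more cells that express a gene and more RNA per cell cannot be told apart.

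NOX5, a calcium-activated NADPH oxidase that makes superoxide, was measured at 7.89, 8.13 and 10.1 CPM with DMSO and at 16.1, 15 and 16.4 CPM with UNC0642. It rose 1.81-fold (log2 0.86 ± 0.12, adjusted p = 0.00521), and without DMSO replicate 1 its adjusted p was 0.0517. NOX5 shares its locus with SPESP1, which had 0 counts in all 6 libraries. BANCR, a long noncoding RNA first described in melanoma, rose from 8.54, 10.8 and 7.74 CPM to 14.9, 15.7 and 13.5 CPM (log2 0.71 ± 0.13, adjusted p = 0.0269). BANCR passed in 2 of the 6 fits that left out 1 library, and not without DMSO replicate 1, DMSO replicate 3, UNC0642 replicate 1 or UNC0642 replicate 3, where its adjusted p reached 0.164. The count of 3 was 1 without DMSO replicate 1 or 3 and 2 without UNC0642 replicate 1 or 3.

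The other 5 genes did not pass the test and were expressed at low levels. SERPINA1 (alpha-1 antitrypsin) was measured at 3.54 to 4.14 CPM with DMSO and at 4.74, 8.73 and 5.41 CPM with UNC0642 (log2 0.74, adjusted p = 0.179), with the highest value in UNC0642 replicate 2. BST2 (tetherin, an interferon-induced antiviral protein) was measured at 1.37 to 2.29 CPM and 2.4 to 3.59 CPM (0.72, adjusted p = 0.288). KRT23, a keratin, was measured at 0.457 to 0.842 CPM and 0.962 to 1.24 CPM (0.89, adjusted p = 0.417). LINC00426 (0.74, adjusted p = 0.382) and SLAMF7, a receptor of immune cells (0.71, adjusted p = 0.533), stayed under 2.5 CPM in every library. For SLAMF7 the groups overlapped, with 0.722 to 0.986 CPM and 0.814 to 2.14 CPM.

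The sequence around the start of AZGP1 is shown because this gene had the largest rise among the 8 and its promoter holds few CpG pairs, the dinucleotides that are methylated in DNA. The window covers 250 bases before and 50 bases after the RefSeq start (GRCh38.p14, chr7:99975982-99976281, minus strand, printed 5′ to 3′ along the gene), and capitals mark its 1 CpG, which gives an observed over expected ratio of 0.0501.
AZGP1: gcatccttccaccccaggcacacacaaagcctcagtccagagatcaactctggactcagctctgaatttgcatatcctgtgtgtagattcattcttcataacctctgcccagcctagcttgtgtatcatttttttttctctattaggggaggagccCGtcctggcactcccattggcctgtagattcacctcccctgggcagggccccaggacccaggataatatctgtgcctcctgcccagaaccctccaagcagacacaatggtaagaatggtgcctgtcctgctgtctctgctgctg

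LHFPL3-AS1, a noncoding RNA antisense to LHFPL3, rose from 15.9, 14.2 and 15.5 CPM to 30, 28.3 and 30 CPM (1.93-fold, log2 0.95 ± 0.079, adjusted p = 0.000127). It was the 1 gene past the threshold among 367 tested antisense RNA genes (0.272%). Over all tested genes 0.371% passed as higher, so the antisense count says little about that list. Of 154 tested genes named LINC 2 passed (1.3%), LINC00504 and LINC01531. The LINC count was 1 without DMSO replicate 1, 2 without UNC0642 replicate 2 and 0 without any of the other 4 libraries. COL9A1, a chain of collagen IX of cartilage and of the vitreous of the eye, rose from 38.9 to 40.5 CPM with DMSO to 57.5 to 63.3 CPM with UNC0642 (log2 0.59 ± 0.059, adjusted p = 0.000648). COL9A1 was the 1 gene past the threshold among 29 tested collagen chains (3.45%, beside 0.371% of all tested genes that were higher). Of the 29, 23 had positive log2 fold changes (median 0.19). HAS2, which makes hyaluronan, rose from 9.02 to 11.3 CPM to 14.7 to 17.5 CPM (0.67 ± 0.12, adjusted p = 0.0206).

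DES (desmin, an intermediate filament of muscle) rose from 1.18, 1.73 and 1.83 CPM to 3.58, 4.54 and 3.69 CPM (2.49-fold, log2 1.32 ± 0.24, adjusted p = 0.026). MYH7, a cardiac myosin heavy chain, rose from 34.3 to 41.5 CPM to 50.7 to 54.7 CPM (0.51 ± 0.079, adjusted p = 0.012). The muscle markers MYOD1, MYOG, ACTA1, CKM and MYH2 summed to 0 to 0.168 CPM with DMSO and 0 to 0.392 CPM with UNC0642. Of 7 tested genes of the muscle list, which does not hold MYH7, DES was the 1 that passed (14.3%, beside 0.371% of all tested genes that were higher). The median of the list was −0.056. Of the fits that left out 1 library, DES passed in that without UNC0642 replicate 2 and in no other.

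Several secreted factors and enzymes rose by less than 2-fold. IGF1, a growth factor, rose 1.66-fold (6.66 to 8.32 CPM with DMSO and 11.9 to 13.6 CPM with UNC0642, adjusted p = 0.0139). The noncoding RNA LINC00504 rose 1.78-fold (adjusted p = 0.0139), the sulfotransferase gene SULT1C2 rose 1.6-fold (adjusted p = 0.039), and PI15, a secreted peptidase inhibitor, rose 1.5-fold (adjusted p = 0.00521). SPP1 (osteopontin) was the most abundant of these and rose from 409, 423 and 412 CPM to 501, 535 and 511 CPM (log2 0.31 ± 0.04, adjusted p = 0.00475). TXNIP, which binds thioredoxin and restrains glucose uptake, rose 1.39-fold from 44.4 to 50.3 CPM to 62.9 to 69.7 CPM (adjusted p = 0.00595). HTN1, a salivary histatin, rose 1.42-fold from 42.3 to 49.1 CPM to 61.7 to 67.9 CPM (adjusted p = 0.00521). SPP1, TXNIP and HTN1 were chosen for description after their values were seen.

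**Figure D2:**
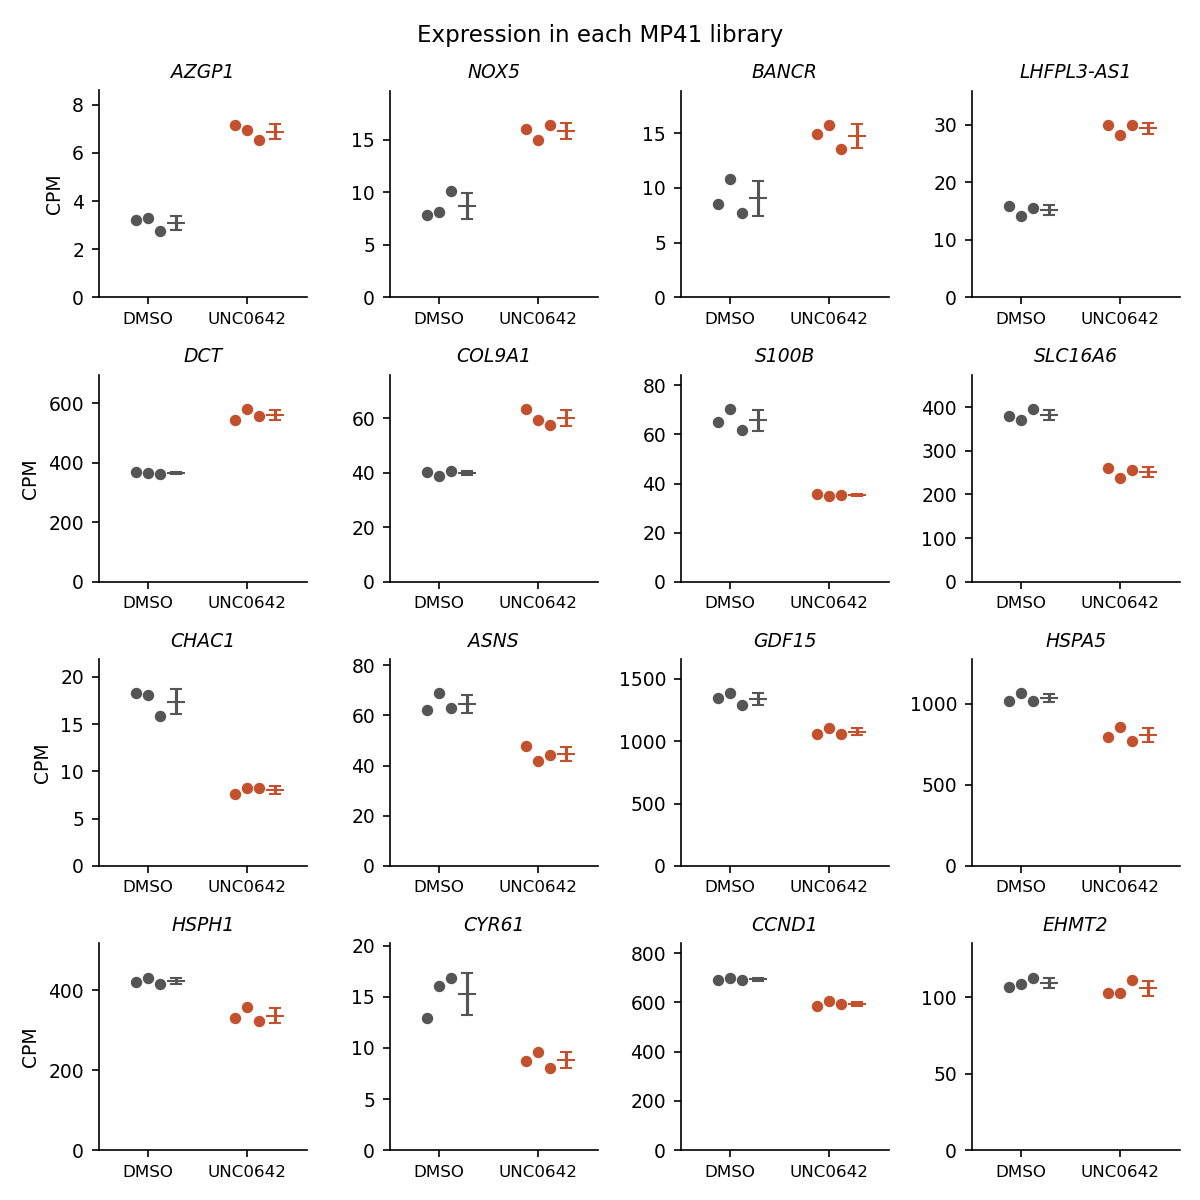
Each panel shows the expression of 1 gene in CPM (linear axis from 0), with a point for each of the 3 DMSO and 3 UNC0642 libraries and a bar beside them for the mean ± SD. The groups do not overlap for 15 of the 16 genes and overlap for EHMT2, and AZGP1 lies at 2.74 to 3.3 CPM with DMSO and 6.54 to 7.16 CPM with UNC0642.

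Of the pigment genes, DCT rose and the rest did not pass the test. DCT encodes dopachrome tautomerase, a melanosome enzyme of the melanin pathway, and lies at chr13:94436808-94479682 in hg38. It was measured at 367, 365 and 362 CPM with DMSO and at 545, 580 and 556 CPM with UNC0642, a 1.54-fold rise with little spread in either group (log2 0.62 ± 0.039, adjusted p = 2.31e-05). DCT was the 1 gene past the threshold among 25 tested genes of the melanocyte list (4%, beside 0.371% of all tested genes that were higher), whose median was 0.042. Leaving out UNC0642 replicate 2 raised that count to 4, and any other single library left it at 1. Of the 25, 8 had an unadjusted p under 0.05, beside 1774 of all 14561 tested genes. The groups did not overlap for 7 higher and 4 lower genes of the list, beside 2773 of all tested genes (19%). The enzyme genes TYR (1685 CPM with DMSO and 1764 CPM with UNC0642, means of 3) and TYRP1 (7474 and 7518 CPM) and the lineage factors MITF (684 and 705 CPM) and SOX10 (672 and 703 CPM) did not pass the test and overlapped between groups. PMEL, the melanosome fibril protein, did not overlap (means 4949 and 5315 CPM, log2 0.10), with an adjusted p of 0.0849.

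Of the neural crest and glial list, S100B and NES fell. S100B, a calcium-binding protein of glia and melanocytes that is used as a melanoma marker, fell from 65.1, 70.3 and 61.9 CPM to 35.9, 35 and 35.2 CPM (log2 −0.89 ± 0.062, adjusted p = 2.85e-05). NES (nestin, an intermediate filament of neural precursors) fell from 304 to 316 CPM to 255 to 276 CPM (−0.22 ± 0.044, adjusted p = 0.042). These were the 2 genes past the threshold among 13 tested on this list (15.4%, beside 0.426% of all tested genes that were lower). The list had a median of −0.15, with 5 positive and 8 negative members. The count of genes past the threshold was 3 without UNC0642 replicate 2 and 1 without any other single library. POU3F2 (BRN2), a neural transcription factor that in melanoma marks a less differentiated state, fell 1.69-fold from 11.5 to 11.7 CPM to 5.94 to 7.55 CPM (adjusted p = 0.0122).

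Several genes of the integrated stress response fell. In this response the factor ATF4 induces genes for amino acid supply and redox balance when translation is restrained. CHAC1, which degrades glutathione and is a strong ATF4 target, had the largest fall on this list, from 18.2, 18 and 15.9 CPM to 7.57, 8.27 and 8.23 CPM (2.16-fold lower, log2 −1.11 ± 0.10, adjusted p = 0.000324). ASNS (asparagine synthetase) fell from 62.2, 68.8 and 63.1 CPM to 47.7, 41.9 and 44.2 CPM (−0.54 ± 0.066, adjusted p = 0.00374). GDF15, a secreted stress cytokine, fell from 1344, 1383 and 1291 CPM to 1057, 1108 and 1061 CPM (−0.32 ± 0.036, adjusted p = 0.00227). KLHL24, a ubiquitin ligase adaptor, fell from 63.9 to 70.9 CPM to 53.1 to 57.2 CPM (−0.30 ± 0.059, adjusted p = 0.0413).

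These 4 were the genes past the threshold among 31 tested on the ATF4 list (12.9%), all lower, beside 0.426% of all tested genes. The median of the list was −0.20, and 27 of the 31 log2 fold changes were negative. At an unadjusted p under 0.05 there were 21 of the 31, beside 1774 of all 14561 tested genes. The count was 8 without UNC0642 replicate 2 and 3 without any other single library. DESeq2 placed 9 of them past its threshold. Of 20 aminoacyl-tRNA synthetase genes, 1 passed: WARS (tryptophanyl-tRNA synthetase) fell from 358 to 385 CPM to 259 to 296 CPM (−0.41 ± 0.056, adjusted p = 0.00521), and not without DMSO replicate 1 or 3, where none of the 20 passed. The count was 2 without UNC0642 replicate 2. WARS is also an interferon-induced gene.

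A few genes of the endoplasmic reticulum (ER) that the unfolded protein response induces fell as well. HSPA5 (BiP, the main ER chaperone) fell from 1020, 1063 and 1018 CPM to 792, 859 and 773 CPM (−0.36 ± 0.043, adjusted p = 0.00344). HERPUD1, which serves the degradation of ER proteins, fell from 21.8, 24.1 and 21.8 CPM to 15.3, 15.2 and 16.7 CPM (−0.52 ± 0.086, adjusted p = 0.0143). HYOU1, an ER chaperone, fell from 199 to 210 CPM to 158 to 178 CPM (−0.27 ± 0.052, adjusted p = 0.0335). They were the 3 past the threshold of 20 tested on this list (15%, beside 0.426% of all tested genes that were lower). Of the 20, 18 had negative log2 fold changes (median −0.15). The count was 5 without UNC0642 replicate 2, 2 without UNC0642 replicate 1 or 3, and 1 without any single DMSO replicate.

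The promoters of CHAC1, HERPUD1 and HSPA5 are shown because these genes fell and each window holds a stress element. They run from 250 bases before to 50 after the RefSeq start in GRCh38.p14, printed 5′ to 3′ along the gene: CHAC1 at chr15:40953221-40953520 (plus strand), HERPUD1 at chr16:56931892-56932191 (plus strand) and HSPA5 at chr9:125241294-125241593 (minus strand). Capitals mark the ATF4 composite element TTGCATCA in CHAC1 and HERPUD1, and in HSPA5 the ends CCAAT and CCACG of the ER stress element, which are separated by 9 bases of any kind. The ER stress element was chosen for the search after the values were seen.
CHAC1: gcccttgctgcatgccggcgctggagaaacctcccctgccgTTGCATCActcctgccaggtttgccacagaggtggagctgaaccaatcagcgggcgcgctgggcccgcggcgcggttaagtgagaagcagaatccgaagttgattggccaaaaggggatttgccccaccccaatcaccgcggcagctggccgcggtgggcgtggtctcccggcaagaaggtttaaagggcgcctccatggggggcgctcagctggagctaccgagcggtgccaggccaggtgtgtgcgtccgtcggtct
HERPUD1: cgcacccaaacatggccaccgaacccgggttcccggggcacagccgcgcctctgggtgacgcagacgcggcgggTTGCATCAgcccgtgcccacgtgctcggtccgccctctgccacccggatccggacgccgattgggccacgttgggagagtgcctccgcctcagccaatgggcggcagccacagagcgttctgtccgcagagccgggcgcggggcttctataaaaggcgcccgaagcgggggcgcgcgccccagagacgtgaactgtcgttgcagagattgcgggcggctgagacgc
HSPA5: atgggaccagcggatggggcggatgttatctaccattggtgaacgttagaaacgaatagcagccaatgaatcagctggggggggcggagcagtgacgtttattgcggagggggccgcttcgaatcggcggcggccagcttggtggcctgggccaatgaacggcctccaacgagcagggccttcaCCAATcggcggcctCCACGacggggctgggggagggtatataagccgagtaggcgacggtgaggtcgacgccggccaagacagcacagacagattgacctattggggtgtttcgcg

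Searched on both strands, the ATF4 element was found in 55 of 11451 promoter windows of tested genes (0.48%), in 2 of the 45 windows of lower genes and in 1 of the 36 windows of higher genes, ABCA13. The ER stress element was found in 15 of the 11451 windows (0.131%) and in 1 of the 45. A match describes letters in the window and not a bound site.

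Some cytosolic chaperones of the heat shock response fell in the same libraries. This group was chosen after values were seen and holds genes named for the HSP70, HSP90, HSP110, small HSP and DNAJ families. HSPA1B (an inducible HSP70) fell from 60.6, 56.8 and 58.6 CPM to 44.7, 39 and 40.3 CPM (−0.51 ± 0.065, adjusted p = 0.00475). HSPH1 (HSP110) fell from 420, 431 and 416 CPM to 330, 357 and 322 CPM (−0.33 ± 0.046, adjusted p = 0.00643), and HSPA8, the constitutive HSP70, fell from 2621, 2653 and 2635 CPM to 2323, 2384 and 2302 CPM (−0.17 ± 0.027, adjusted p = 0.0122). With DNAJB1, the HSP40 partner of these chaperones (−0.23 ± 0.046, adjusted p = 0.0413), and HSPA5, 5 of 38 tested genes passed, all lower. That was 13.2% of the group, beside 0.426% of all tested genes that were lower. The median of the group was −0.095 and 31 of the 38 were negative. The count was 6 without UNC0642 replicate 2, 4 without UNC0642 replicate 1, 3 without UNC0642 replicate 3 or DMSO replicate 2, and 2 without DMSO replicate 1 or 3.

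A pair of chaperone genes outside that group fell with little spread and passed in every fit that left out 1 library; they too were picked after their values were seen. CRYAB (alpha-B crystallin, a small heat shock protein of the lens) fell from 160, 163 and 160 CPM to 115, 115 and 107 CPM (−0.52 ± 0.047, adjusted p = 0.000296). CHORDC1, an HSP90 co-chaperone induced by heat, fell from 113, 112 and 113 CPM to 78.4, 90.1 and 80.2 CPM (−0.44 ± 0.058, adjusted p = 0.00521). The windows of HSPA8 and CHORDC1 are shown because both hold the heat shock element, also chosen after the values were seen and searched as the triplets GAA, TTC and GAA with 2 bases of any kind between neighbours, which was found on either strand in 36 of the 11451 windows (0.314%) and in 2 of the 45 windows of lower genes. Capitals mark the fixed triplets of each match, and matches in CHORDC1 overlap. The windows are HSPA8 at chr11:123062087-123062386 and CHORDC1 at chr11:90223000-90223299, both on the minus strand of GRCh38.p14 and both from RefSeq.
HSPA8: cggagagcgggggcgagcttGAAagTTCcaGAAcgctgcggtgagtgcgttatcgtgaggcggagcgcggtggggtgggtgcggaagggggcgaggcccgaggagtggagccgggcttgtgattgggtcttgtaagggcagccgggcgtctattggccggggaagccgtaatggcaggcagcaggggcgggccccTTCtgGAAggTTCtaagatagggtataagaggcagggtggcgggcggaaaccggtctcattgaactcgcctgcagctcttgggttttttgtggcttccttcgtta
CHORDC1: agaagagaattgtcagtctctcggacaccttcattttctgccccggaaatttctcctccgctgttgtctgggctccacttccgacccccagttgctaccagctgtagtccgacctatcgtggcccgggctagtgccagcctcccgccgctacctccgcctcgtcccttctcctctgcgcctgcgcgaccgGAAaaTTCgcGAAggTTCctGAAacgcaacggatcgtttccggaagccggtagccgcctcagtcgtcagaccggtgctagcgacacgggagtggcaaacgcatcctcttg

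Output genes of the MAPK pathway were lower in part. CCND1 (cyclin D1, which drives entry into S phase) fell from 689, 700 and 692 CPM to 586, 604 and 592 CPM (−0.22 ± 0.035, adjusted p = 0.012). FOS, an immediate early factor, fell from 31.1 to 33 CPM to 23.5 to 25.7 CPM (−0.41 ± 0.069, adjusted p = 0.0172). The feedback inhibitors SPRY2 (−0.28 ± 0.049, adjusted p = 0.0212) and DUSP6 (−0.26 ± 0.051, adjusted p = 0.036) fell as well. Of 19 tested genes of this list 4 passed (21.1%, beside 0.426% of all tested genes), all lower, with a median of −0.11. The count was 4 without UNC0642 replicate 2, 2 without UNC0642 replicate 1 and 0 without UNC0642 replicate 3 or any single DMSO replicate.

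Of 18 tested targets of YAP and TEAD factors, 3 passed (16.7%, beside 0.426% of all tested genes), all lower, with a median of −0.17. CYR61 (CCN1, a matricellular protein) fell from 12.9, 16 and 16.9 CPM to 8.69, 9.63 and 8.05 CPM (1.74-fold lower, −0.80 ± 0.12, adjusted p = 0.012). CTGF (CCN2) fell from 12.7 to 15.6 CPM to 8.52 to 10.1 CPM (−0.63 ± 0.12, adjusted p = 0.026). AMOTL2, an angiomotin that binds YAP, fell from 34.1 to 38.9 CPM to 25.3 to 28 CPM (−0.40 ± 0.076, adjusted p = 0.0294). The count was 4 without UNC0642 replicate 2, 1 without DMSO replicate 1 or 2, and 0 without any of the other 3 libraries.

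FN1 (fibronectin) fell from 59.3 to 63 CPM to 46.5 to 48.1 CPM (−0.38 ± 0.055, adjusted p = 0.00686), and LAMA4, a laminin chain of vessel walls, fell from 55.1 to 63.9 CPM to 42.1 to 46.8 CPM (−0.37 ± 0.071, adjusted p = 0.031). LAMA4 was the 1 that passed of 32 tested integrin and laminin chains (3.12%, beside 0.426% of all tested genes that were lower). Their median was −0.0024, with 16 positive and 16 negative. The count of genes past the threshold was 1 without UNC0642 replicate 2 and 0 without any other single library. MGP (matrix Gla protein, an inhibitor of calcification) fell from 408, 432 and 385 CPM to 253, 314 and 248 CPM (−0.59 ± 0.079, adjusted p = 0.00521). SLC16A6 (MCT7, a transporter of the monocarboxylate family) fell from 380, 372 and 395 CPM to 260, 238 and 257 CPM (1.52-fold lower, adjusted p = 7.86e-05). FLRT2, an adhesion protein picked after its values were seen, fell from 75.2 to 80.7 CPM to 55 to 58.2 CPM (−0.48 ± 0.054, adjusted p = 0.00213). The adhesion genes CD44 (−0.28 ± 0.042, adjusted p = 0.0101) and MCAM (−0.28 ± 0.045, adjusted p = 0.0122), also picked in that way, fell by little at 282 to 362 CPM.

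HTR2B, the serotonin receptor whose expression is used to grade uveal melanoma as class 2, fell 1.57-fold from 25, 22.9 and 24.6 CPM to 15.8, 14 and 16.3 CPM (adjusted p = 0.00521). It was the 1 gene that passed of 4 tested on the class 2 list (25%, beside 0.426% of all tested genes that were lower). HTR2B did not pass without DMSO replicate 1 or 3. RAB33A, a small GTPase, fell 1.49-fold (adjusted p = 0.0131), and ITPR2, a calcium channel of the ER that opens to the Gq messenger IP3, fell 1.45-fold (adjusted p = 0.0481). ITPR2 passed in 0 of the 6 fits that left out 1 library. Of 15 tested driver genes of the Gq pathway itself, 0 passed by edgeR, DESeq2 or limma, and 2 had an unadjusted p under 0.05. The share past the threshold over all tested genes was 0.797%.

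A few metabolic genes showed small rises. PGK1, ENO1 and LDHA, enzymes of glycolysis, rose by 0.20 ± 0.031 (adjusted p = 0.0112), 0.15 ± 0.026 (adjusted p = 0.0206) and 0.18 ± 0.031 (adjusted p = 0.0176) on the log2 scale. The most abundant of these transcripts, ENO1, was measured at 2817, 2813 and 2786 CPM with DMSO and at 3156, 3049 and 3132 CPM with UNC0642. Of the 29 tested genes for glycolysis and hypoxia, 21 were positive (median 0.11) and 15 had an unadjusted p under 0.05. Those 3 enzymes were the genes of the list that passed (10.3%, beside 0.371% of all tested genes that were higher). The count was 7 without UNC0642 replicate 2, 1 without DMSO replicate 2 or UNC0642 replicate 1, and 0 without any of the other 3. SREBF1, a transcription factor for lipid synthesis, rose from 109 to 115 CPM to 134 to 141 CPM (0.30 ± 0.047, adjusted p = 0.0122), and passed in 1 of the 6 fits that left out 1 library.

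**Figure D3:**
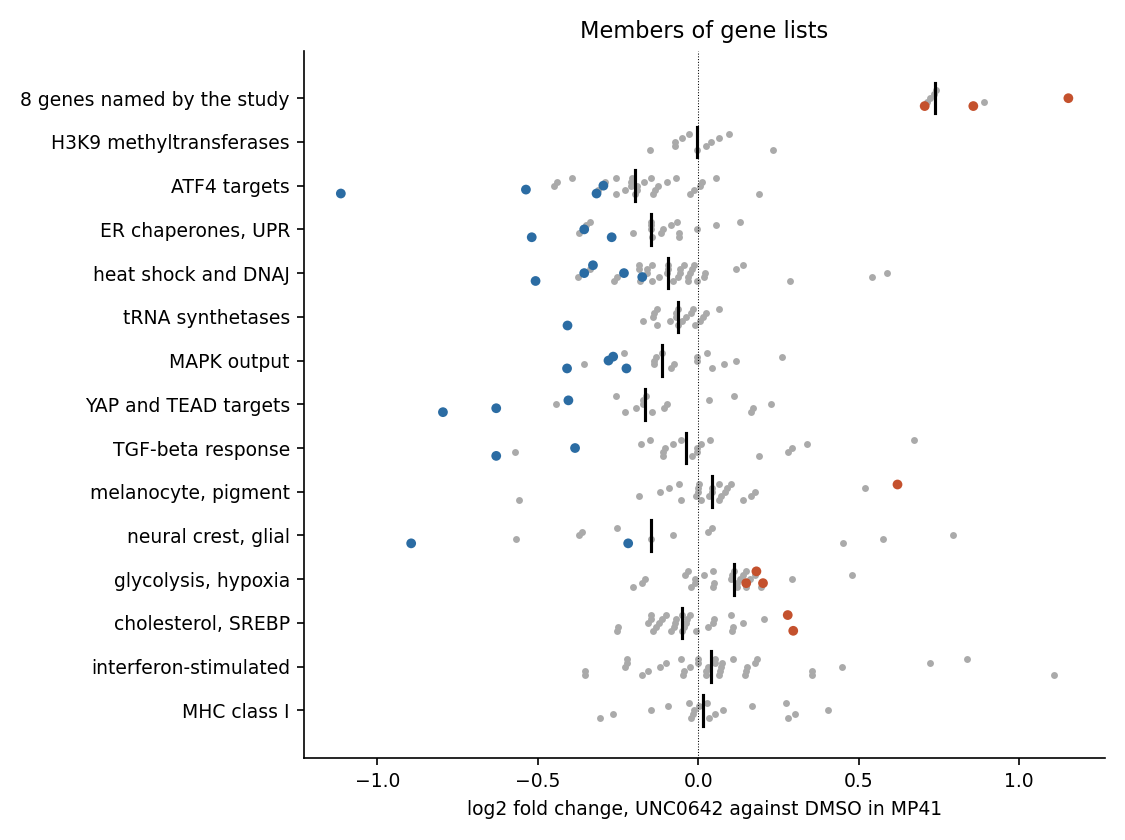
Each point is the log2 fold change with UNC0642 against DMSO of 1 tested gene of the list named on the y axis, red where it rose and blue where it fell at an adjusted p of 0.05, and the black tick is the median of the list. The medians of the ATF4 list (−0.20), the YAP and TEAD list (−0.17) and the ER list (−0.15) lie left of 0, and those of the interferon-stimulated (0.041) and MHC class I (0.017) lists lie near the median of all genes, 0.0035.

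Among genes through which the study links EHMT2 to NK cells, AZGP1 rose as described above, and TGFB1 and the tested NK cell ligands did not pass. The study reports lower TGF-β1 from its own analysis of the RNA-seq and from immunoblots of the protein. It reports MICB and ULBP3 as raised by the inhibitors in uveal melanoma cells. For these it used immunoblots, RT-qPCR and flow cytometry of the cell surface, the last 2 at a higher dose. The values here are RNA-seq at 1 μM and 48 h, so most of those assays are not a like measure. TGFB1, the cytokine TGF-β1, was measured at 46.9, 42.8 and 41.6 CPM with DMSO and at 43.4, 39.2 and 47 CPM with UNC0642, which overlap (−0.021 ± 0.076, adjusted p = 0.941), and its sign changed in some alternative fits. Of 20 tested ligands, receptors and SMADs of the TGF-β pathway 0 passed by edgeR (3 at an unadjusted p under 0.05, 2 by DESeq2). Of 20 tested TGF-β response genes 2 passed (10%, beside 0.426% of all tested genes that were lower), FN1 and CTGF described above. The median of that list was −0.037, with 13 negative. The count of 2 was 0 without DMSO replicate 1 or 3 and 1 without UNC0642 replicate 1 or 3. MICB, a ligand of the NK cell receptor NKG2D, was measured at 34.3, 32 and 36.8 CPM and at 29.4, 29 and 32.4 CPM (−0.18 ± 0.075, adjusted p = 0.341). ICAM1, the adhesion ligand of LFA-1, was measured at 246 to 276 CPM and 221 to 251 CPM (−0.18 ± 0.059, adjusted p = 0.219). Of 11 tested ligands of activating NK cell receptors 0 passed by edgeR, DESeq2 or limma, and 2 had an unadjusted p under 0.05. With 0.797% of all tested genes past the threshold, few or none would be found in a list this small. ULBP1, ULBP2, ULBP3 and the chemokine CCL27 were below the filter on low counts, with 0 or 1 count in each library except ULBP2, which had 10 counts in DMSO replicate 2 and 2 in UNC0642 replicate 1, so that no difference was detectable at this depth.

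Other immune lists gave no gene past the threshold by edgeR. Over all tested genes 0.797% passed, so 0 in lists of this size says little about their members. Of 18 tested genes for MHC class I and antigen processing 0 passed (2 at an unadjusted p under 0.05, and 1 by DESeq2). Of 36 interferon-stimulated genes 0 passed (5 unadjusted, 1 by DESeq2 and 1 by limma), with CASP1, an inflammatory caspase, at 1.45 to 2.31 CPM with DMSO and 3.61 to 3.89 CPM with UNC0642 (log2 1.11 ± 0.24, adjusted p = 0.0634). Of 11 chemokines 0 passed with 0 unadjusted, and of 8 ligands of immune checkpoints 0 passed with 2 unadjusted, in both cases also 0 by DESeq2 and limma. CCL2, the chemokine with the smallest p, was measured at 4.8 to 5.72 CPM and 3.33 to 4.99 CPM (−0.37, adjusted p = 0.45). 

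Of the enzymes and readers of H3K9 methylation none passed. Of 11 methyltransferases and G9a partners, 9 readers and 11 demethylases tested, 0 passed by edgeR, DESeq2 or limma, with 2, 1 and 2 at an unadjusted p under 0.05. Over all tested genes 0.797% passed, so 0 in lists this small says little about their members. SUV39H1, which trimethylates H3K9, was measured at 24.3 to 25.6 CPM with DMSO and 26.3 to 34.1 CPM with UNC0642 (0.23 ± 0.094, adjusted p = 0.334). ATF7IP, a partner of the methyltransferase SETDB1, was measured at 67.7 to 71.9 CPM and 61.3 to 65.9 CPM (−0.15 ± 0.054, adjusted p = 0.276).

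Some calls rested on genes that share reads with a neighbour or a copy, where the estimation splits reads between them. ABHD14A-ACY1, a read-through transcript, held 240, 170 and 238 counts with DMSO and 0 in each UNC0642 library. By the group means this was at least 71.5-fold lower against a floor of 3 counts per library. ACY1, an aminoacylase within the same reads, rose from 69, 71.2 and 65.2 CPM to 82.6, 88.1 and 85.2 CPM (0.32 ± 0.054, adjusted p = 0.0172). The sum of ABHD14A, ACY1 and the read-through was 82.3 to 86.6 CPM and 93.9 to 97.4 CPM, a log2 difference of 0.18. TGIF2-C20orf24 held 0 counts with DMSO and 10, 83 and 126 with UNC0642, while the sum with its parent genes differed by 0.034. By the group means it was at least 24.7-fold higher against the same floor, a bound that UNC0642 replicate 1 alone does not reach. TMEM183B, a near copy of TMEM183A, was called 2.43-fold lower while their sum differed by 0.042. For the nearly identical HSPA1A and HSPA1B the sum was still lower, at 69.1 to 73.6 CPM with DMSO and 50 to 55.5 CPM with UNC0642 (log2 −0.44). PCDHA11 (2-fold lower), GAGE7 and GAGE12D (0 to 0.516 CPM with DMSO and 2.1 to 9.31 CPM with UNC0642) belong to clusters of near-identical or overlapping genes and are uncertain in the same way. Without 7 of these genes (all but ACY1), 109 remained past the threshold.

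**Figure D4:**
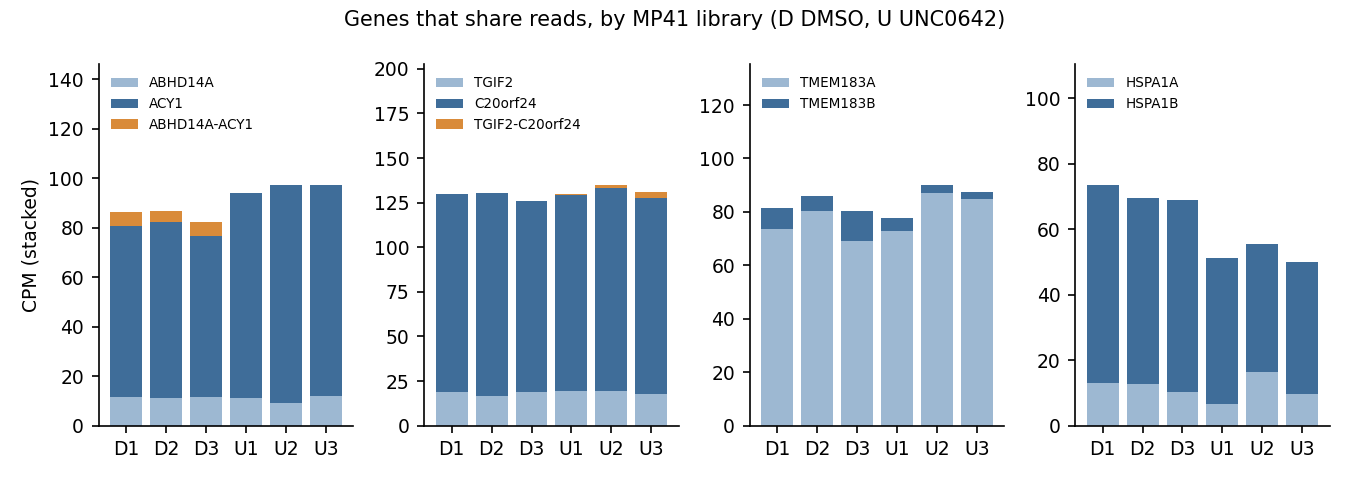
Stacked bars give the CPM of genes that share reads in each DMSO (D1 to D3) and UNC0642 (U1 to U3) library of MP41, on linear axes from 0. The read-through ABHD14A-ACY1 is seen with DMSO alone and TGIF2-C20orf24 with UNC0642 alone, while the full height of the bars for TGIF2 and TMEM183 changes little and that for HSPA1A with HSPA1B is lower with UNC0642.

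Promoter windows from RefSeq were matched for 81 of the 116 genes, 36 higher and 45 lower. A CpG observed over expected ratio below 0.6 was found for 17 of the 36 higher genes (47.2%), 9 of the 45 lower genes (20%) and 2199 of the 11451 tested genes with a window (19.2%). The GC box GGGCGG was found on either strand in 38.9% of windows of higher genes, 73.3% of those of lower genes and 68.8% of all. These shares are descriptions with no test. The median GC content of annotated transcripts was 49.2% for higher genes, 47.1% for lower genes and 48.4% for all tested genes.

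The same treatment in Mel92.1, in libraries that the MP41 comparison did not use, gives each gene a further measurement. In Mel92.1, 42 of 14164 tested genes passed the adjusted p of 0.05 (0.297%) and 843 an unadjusted p of 0.05 (5.95%). Of the 116 MP41 genes 103 were tested there, and 79 of them (76.7%) had the same sign, against 53.6% of the 13389 genes tested in both lines. Of the 43 higher genes 35 were higher, and of the 60 lower genes 44 were lower. The cytosolic chaperone genes HSPA1B (0.16), HSPH1 (0.23), HSPA8 (0.055) and DNAJB1 (0.16) had the other sign in Mel92.1, and none passed there. HSPA5 kept its sign (−0.24) and did not pass either. The median log2 fold change in Mel92.1 was 0.21 for genes that rose in MP41, −0.18 for those that fell, and −0.019 over all genes tested in both. The same sign with an unadjusted p under 0.05 was found for 26 of the 103 (25.2%). With an adjusted p under 0.05 there was 1, NOX5, at 0.38 to 0.413 CPM with DMSO and 3.44 to 3.84 CPM with UNC0642 in Mel92.1 (log2 3.22, adjusted p = 0.02). UNC0642 replicate 1 of Mel92.1 had the lowest total (23601160 counts) and 32.8% of ribosomal RNA. Without it 74 of 106 genes had the same sign, 33 with an unadjusted p under 0.05, and 5 passed the adjusted threshold: NOX5 (log2 3.2, adjusted p = 0.00504), AZGP1 (2.21, 0.0464), HTN1 (1.92, 0.00906), CHAC1 (−1.66, 0.0111) and HTR2B (−1.01, 0.00906). The difference in response between the lines, tested as an interaction, passed for 57 of 15464 genes (0.369%), 4 of which were among the 116.

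**Figure D5:**
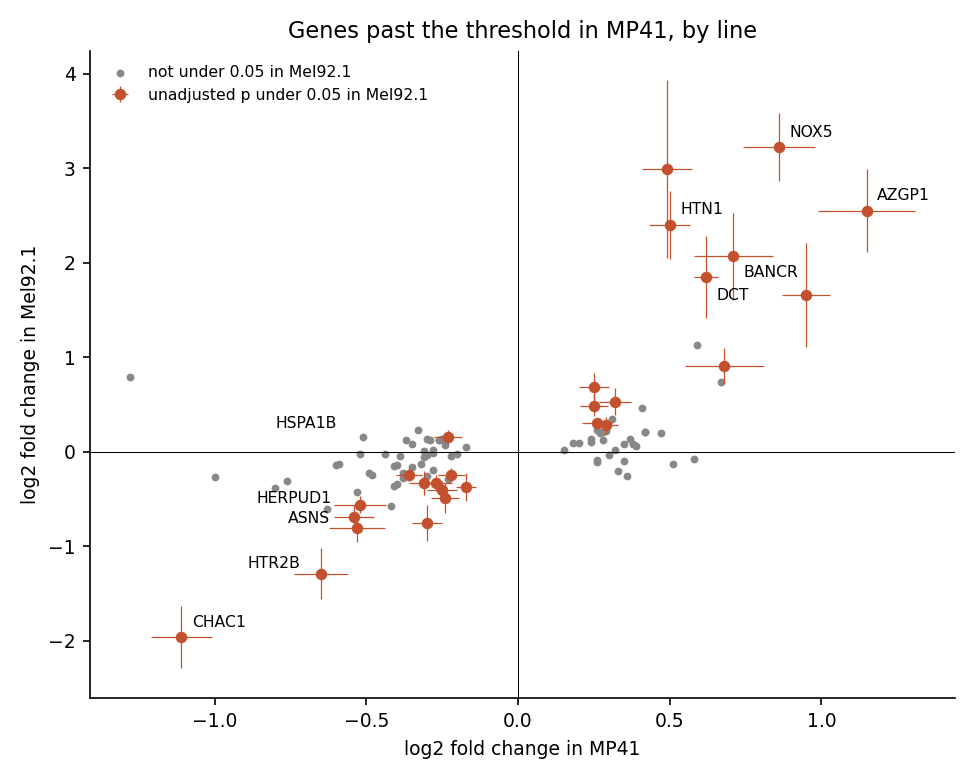
Each point is 1 of the 103 genes past the threshold in MP41 that were tested in Mel92.1 (read-through genes without a fitted value in MP41 are not drawn), with the log2 fold change with UNC0642 in MP41 on the x axis and in Mel92.1 on the y axis. Orange points with bars of ± 1 SE have an unadjusted p under 0.05 in Mel92.1, and AZGP1, NOX5, HTN1 and DCT lie far up at the right while CHAC1, HTR2B, ASNS and HERPUD1 lie at the lower left.

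The libraries treated with the inhibitor A366 share the DMSO controls, so their values are set beside the others with no test. They are the library labelled MP41 A366 replicate 1 and those labelled as A366 replicates 2 and 3 of Mel92.1, which carry the MP41 genes at 110% and 108%, with levels scaled over these 9 libraries. All 8 genes named by the study had higher values in the 3 A366 libraries than in any DMSO library, with AZGP1 at 9.4, 8.4 and 10.7 CPM against 2.69 to 3.25 CPM with DMSO and 6.41 to 7.04 CPM with UNC0642. For CHAC1, ASNS, HERPUD1, S100B, HSPA5, HSPA1B and CYR61 the A366 values lay above DMSO and the UNC0642 values below it. For GDF15 the A366 values overlapped DMSO. SLC16A6 lay below DMSO, and COL9A1 and LHFPL3-AS1 above it, with both inhibitors. CHAC1 was at 65.8, 59.3 and 72.6 CPM with A366, 15.6 to 17.9 CPM with DMSO and 7.45 to 8.13 CPM with UNC0642. ASNS was at 144, 143 and 151 CPM with A366, 61.2 to 67.7 CPM with DMSO and 41.2 to 46.9 CPM with UNC0642. HERPUD1 was at 39, 36.7 and 37.3 CPM with A366 against 21.4 to 23.7 CPM with DMSO and 15 to 16.4 CPM with UNC0642. S100B was at 120, 98.7 and 127 CPM with A366, 60.8 to 69.2 CPM with DMSO and 34.4 to 35.3 CPM with UNC0642. DCT was at 293, 340 and 239 CPM with A366, 356 to 361 CPM with DMSO and 536 to 570 CPM with UNC0642. CCND1 lay below DMSO (678 to 689 CPM) with both inhibitors, at 573, 612 and 562 CPM with A366 and 576 to 594 CPM with UNC0642.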

How the data were processed

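RNA-seq was analysed in 6 MP41 libraries (DMSO and UNC0642, n = 3 each). The values deposited by the authors are expected counts per gene symbol, not normalized for depth, with fractional values for 11% to 11.6% of the genes in each library. The submitters' processing notes name Bowtie2 2.1.0, RSEM 1.2.15 and the build hg38, without their roles, and the annotation is not given in the sources used here. The methods of the study describe TopHat and Cufflinks with the mouse build, a HiSeq instrument and oligo-dT selection, whereas the deposited series text names a NextSeq instrument and depletion of ribosomal RNA. The count's strand setting is not stated, so genes that overlap on opposite strands may share reads.

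Expected counts were rounded and fitted in edgeR 4.0.16 (R 4.3.3) with filterByExpr, TMM factors and the quasi-likelihood test, two-sided, with Benjamini-Hochberg adjustment over all 14561 tested genes of 26475 and a threshold of 0.05. The spread between replicates had a common biological coefficient of variation of 0.09077. Scripts were tested on simulated data. Mel92.1 and the difference between the lines were fitted in the same way. Alternatives used DESeq2 1.42.0, limma 3.58.1 on log2(CPM + 1), other scalings, filters, covariates and sets of libraries. CPM values are scaled by TMM. Shares and floors of 3 counts cover counting error only. Gene symbols were matched to GENCODE 29 (23900 by name, 704 by RefSeq synonym, 1871 not found), and promoter windows came from RefSeq (GRCh38.p14).

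Named genes were the 8 genes of the study with TGFB1, EHMT2 and EHMT1, the 15 largest rises and falls past the threshold with no overlap and a mean of at least 1 CPM, up to 4 genes past the threshold of each list (otherwise the 2 with the smallest p), and up to 5 genes past the threshold in the same direction in both lines. Genes outside this rule are named as chosen after their values were seen. The members and lists were chosen with earlier results of these data known. Some genes that meet the rule are not reported here.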

Additional observations from a re-analysis of the deposited data

Results flagged for a closer look

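The change with UNC0642 differed between MP41 and Mel92.1 for 57 of 15464 genes tested (0.369%) (interaction term in edgeR, quasi-likelihood, Benjamini-Hochberg), 8 with the higher change in MP41 and 49 with the lower. Without UNC0642 replicate 1 of Mel92.1, which had 32.8% of ribosomal RNA, the count was 100, and the 57 were among them.

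Of the 116 genes past the threshold in MP41, 4 were among the 57. NOX5 rose in both lines and by less in MP41, with a log2 difference (MP41 minus Mel92.1) of −2.37 (adjusted p = 0.000739, and 0.000204 to 0.0237 over the alternatives other than DESeq2). Its low level in Mel92.1 with DMSO, under 0.5 CPM, stands beside a level of 7.89 to 10.1 CPM in MP41. HTN1 rose in MP41 and stood at 2.40 in Mel92.1, where it did not pass the test with all 6 libraries (adjusted p = 0.0578). Their difference was −1.85 (adjusted p = 0.0384, 0.13 with the replicate number as a block and 0.000297 without UNC0642 replicate 1 of Mel92.1). HSPA1B fell in MP41 with a log2 fold change of −0.51 and stood at 0.16 in Mel92.1, where it did not pass the test. Their difference was −0.66 (adjusted p = 0.0106, and 0.0731 with the block). FZD7, a Wnt receptor, rose in MP41 by 0.36 and stood at −0.26 in Mel92.1, a difference of 0.61 (adjusted p = 0.0433, and 0.28 with the block).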

How the results depend on the processing

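The count of 116 genes in MP41 stayed within 1.5 times under other size factors (117), no composition factor (105), limma (120), a mean of at least 1 CPM (121), offsets for GC content (135) or GC content and length (156), and without genes that share reads (109, added after seeing the data). It was 311 by DESeq2, 219 by limma voom with sample weights, 300 with no filter on low counts, 24 with a fold of 1.5 as well, 268 with that fold and an unadjusted p, 1 in the fit of 12 libraries, 0 in that of 9 libraries as labelled and 36 with A366 libraries placed by line. Leaving out 1 library gave 19 to 209. In Mel92.1 the count was 42 (188 by DESeq2 and 2 to 47 with 1 library left out), and for the difference between lines 57 (207 by DESeq2, and 100 without UNC0642 replicate 1 of Mel92.1). Deviations of libraries with the same number correlated across genes at 0.0055, 0.094 and 0.053, and those with different numbers at −0.085 to 0.037. DMSO replicates 2 and 3 correlated best with the UNC0642 library of the same number, and DMSO replicate 1 with UNC0642 replicate 3 (0.017). In both groups replicate 2 had the highest share of ribosomal RNA (5.1% and 5.14%) and of small structural RNA (0.0356% and 0.0617%). Its total was the lowest with DMSO (39230070) and the highest with UNC0642 (44082883). The small correlations and these library values do not settle whether the numbers pair the libraries. The labels do not state a pairing, and the main fit used no block. With the replicate block 649 genes passed in MP41 (634 with a GC offset too), 1 in Mel92.1 and 26 for the difference. The sign of TGFB1 turned from −0.021 to 0.0076 with sample weights, 0.031 without DMSO replicate 1 and 0.045 without UNC0642 replicate 2, over a range of −0.085 to 0.045 with 1 library left out. The cause of these differences was not tested.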

Other observations

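Further lists had no gene past the threshold by edgeR, beside 116 of all 14561 tested genes (0.797%). At an unadjusted p under 0.05 there were 1774 of all tested genes. Of 36 mitosis genes, 32 had positive log2 fold changes with UNC0642 (median 0.045), and of 81 nuclear subunits of oxidative phosphorylation 64 did (median 0.077), with 0 past the threshold by edgeR, DESeq2 or limma and 3 and 8 at an unadjusted p under 0.05. KIF4A, a mitotic kinesin, was measured at 121 to 127 CPM with DMSO and 131 to 151 CPM with UNC0642 (0.18, adjusted p = 0.189), and SDHA, a subunit of respiratory complex II, at 247 to 263 CPM and 273 to 308 CPM (0.17, adjusted p = 0.182). Zinc finger genes named ZNF on chromosome 19, many of which encode repressors that recruit H3K9 methylation, had a median of −0.11 over 234 tested genes, with 157 negative, 0 past the threshold by edgeR, 35 at an unadjusted p under 0.05 and 3 by DESeq2. ZNF274 was measured at 15.4 to 17 CPM with DMSO and 12.1 to 12.4 CPM with UNC0642 (−0.39, adjusted p = 0.0916).

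The connexins GJB2 (0.29, adjusted p = 0.0131) and GJB1 (0.25, adjusted p = 0.0442), subunits of gap junctions, rose among 7 tested (28.6%, beside 0.371% of all tested genes that were higher). This group was chosen after values were seen, and its median was −0.065. The count was 0 without DMSO replicate 1, DMSO replicate 3, UNC0642 replicate 1 or UNC0642 replicate 3. The nuclear noncoding RNA NEAT1 rose from 342 to 352 CPM to 387 to 438 CPM (0.24, adjusted p = 0.0413), and the splicing factor gene SRSF5 rose from 186 to 196 CPM to 233 to 270 CPM (0.38, adjusted p = 0.0112). Both were picked after their values were seen, and in both UNC0642 replicate 2 was the highest library. Of 486 genes tested on chromosome 8, 9 passed (1.85%), 7 of them higher, beside 0.797% of all tested genes. The share was larger on chromosome 13 (5 of 255, 1.96%). These counts were also picked after they were seen.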
